A study of Mus musculus with 12 samples.

Results

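The Hox genes, 39 transcription factor genes found by symbol among the 43432 genes counted, were examined in sciatic nerve RNA of 12 mice aged 1 month. The nerves came from 4 control mice (Mtmr2 wt/wt), 4 Mtmr2 null mice (Mtmr2 -/-) and 4 Mtmr2 null mice given niacin, with 1 nerve and 1 library per mouse. Control and Mtmr2 null mice were labelled untreated, and that word is used here. The paper describes the Mtmr2 null mice that were compared with the niacin group as given vehicle. The niacin group received pure niacin intraperitoneally at 120 mg/kg from day 10 to day 21 and slow-release niacin by gavage from day 21 to day 30. Both Mtmr2 null groups carry a constitutive loss of the phosphatase gene Mtmr2, the gene of the demyelinating neuropathy CMT4B1, and the strain was 129/SvPas. The comparisons ask whether a nerve without Mtmr2, or one treated with niacin, holds another set of positional genes than a control nerve.

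Hox genes lie in 4 clusters, Hoxa, Hoxb, Hoxc and Hoxd, and are numbered by paralogue group from the 3′ to the 5′ end of a cluster. Low numbers are used towards the head and high numbers towards the tail and the tips of the limbs, so that the set of Hox genes in use is a record of where along the body a cell arose. Many cells keep this record into adult life, with Polycomb proteins holding unused genes silent and trithorax proteins keeping used genes active. The sciatic nerve arises from lumbar and sacral levels, and its Schwann cells, fibroblasts and vessels come from different embryonic sources.

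Mouse cluster positions are given in GRCm38 coordinates. Hoxa ran over chr6:52155590-52260880 with 11 members, Hoxb over chr11:96194316-96368256 with 10, Hoxc over chr15:102921103-103036852 with 9 and Hoxd over chr2:74668310-74765142 with 9. Promoter sequence is shown for 3 genes because they span the range of levels described next. Hoxd8 had the highest level of all Hox genes, Hoxb4 had the smallest p of any Hox gene between treated and untreated Mtmr2 null nerves, and Hoxd13 lies in the same cluster as Hoxd8 but was almost unread. Each runs 5′ to 3′ on the plus strand, from 250 bases before to 50 bases after the RefSeq start (GRCm38.p6), with CG pairs in capitals, at chr2:74704365-74704664 for Hoxd8, chr11:96318017-96318316 for Hoxb4 and chr2:74667975-74668274 for Hoxd13.
Hoxd8: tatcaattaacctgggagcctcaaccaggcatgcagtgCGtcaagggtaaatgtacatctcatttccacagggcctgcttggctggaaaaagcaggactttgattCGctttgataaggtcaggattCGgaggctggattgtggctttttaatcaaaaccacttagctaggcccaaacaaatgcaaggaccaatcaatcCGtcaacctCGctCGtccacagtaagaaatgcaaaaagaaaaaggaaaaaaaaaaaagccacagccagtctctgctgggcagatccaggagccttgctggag
Hoxb4: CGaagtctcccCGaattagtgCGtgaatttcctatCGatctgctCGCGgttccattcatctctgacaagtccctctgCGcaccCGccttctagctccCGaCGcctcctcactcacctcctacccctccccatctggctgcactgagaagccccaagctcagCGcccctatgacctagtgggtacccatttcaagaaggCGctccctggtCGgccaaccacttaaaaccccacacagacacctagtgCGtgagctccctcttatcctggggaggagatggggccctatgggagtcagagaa
Hoxd13: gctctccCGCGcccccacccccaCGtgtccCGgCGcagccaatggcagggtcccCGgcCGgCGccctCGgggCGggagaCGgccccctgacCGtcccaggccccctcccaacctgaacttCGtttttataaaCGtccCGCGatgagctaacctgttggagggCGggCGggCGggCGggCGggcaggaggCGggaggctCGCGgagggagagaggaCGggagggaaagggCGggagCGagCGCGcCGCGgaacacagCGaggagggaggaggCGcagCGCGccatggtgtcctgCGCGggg

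The Hoxd8 window held 6 CG pairs, the Hoxb4 window 14 and the Hoxd13 window 37. Over all 32851 RefSeq promoter windows of this length the median was 7. RefSeq windows were at hand for 22 of the 39 Hox genes, with 24 windows and a median of 14.5 CG pairs. The 9 windows of genes at or above 1 CPM per kilobase (the unit is explained below) had a median of 12 and the 15 windows of genes below it a median of 20, and the ranges overlapped. TGATNNAT, a form of the joint Hox and Pbx site searched on both strands, was matched in 4 of the 24 Hox windows (16.7%) and in 8.85% of all windows. None of the 3 sequences above contains it.

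Library totals ran from 26653828 to 28390961 counts in control, 20763951 to 33191106 in Mtmr2 null and 20983641 to 22935378 in niacin-treated nerves. Myelinating Schwann cell markers (Pmp22, Mbp, Prx and Mag) summed to between 49030 and 73338 CPM, as a nerve should, while markers of neuron cell bodies summed to between 1.16 and 6.85 CPM. Here CPM is the count relative to the library total after TMM scaling. The targeted gene Mtmr2 lay at 128 to 161 CPM in control and 66.7 to 73.4 CPM in niacin-treated libraries, but at 71.6, 84.6, 143 and 69.4 CPM in the libraries labelled Mtmr2 null. The library labelled Mtmr2 null replicate 4503 was therefore within the control range. Skeletal muscle markers (Acta1, Ckm, Myh4, Myh1 and Tnnt3) summed to 2395 CPM in niacin replicate 4506 and 2296 CPM in niacin replicate 4507, against 8.26 to 67.1 CPM elsewhere. Xist was high in 1 library per group (4498, 4502 and 4506). Values without replicate 4503, or without both libraries high in muscle markers, are given beside the results they touch.

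To compare genes, levels were expressed per length, as CPM per kilobase of exon (CPM/kb). By this measure 16 of the 39 Hox genes had a median of at least 1 CPM/kb over the 12 libraries, 10 others were lower but passed the filter on low counts, and 13 did not pass it. Hoxd8 led, with 6.22, 6.12, 7.35 and 8.15 CPM/kb in the control libraries, 6.77, 5.17, 7.36 and 5.59 in Mtmr2 null and 6.55, 6.19, 5.07 and 4.04 after niacin. Its median of 6.20 CPM/kb lay above that of 64.0% of the 17257 genes tested. Hoxa10, used in vertebrates for lumbar and hind limb patterning, came next. Its level was 4.17, 4.63, 4.28 and 4.16 CPM/kb in control, 3.27, 4.28, 2.09 and 4.91 in Mtmr2 null and 4.34, 4.21, 5.65 and 5.53 after niacin. The lowest of the 12, 2.09 CPM/kb, belonged to the library labelled Mtmr2 null replicate 4503. Hoxd8 exceeded Hoxa10 in 10 of 12 libraries.

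**Figure D1:**
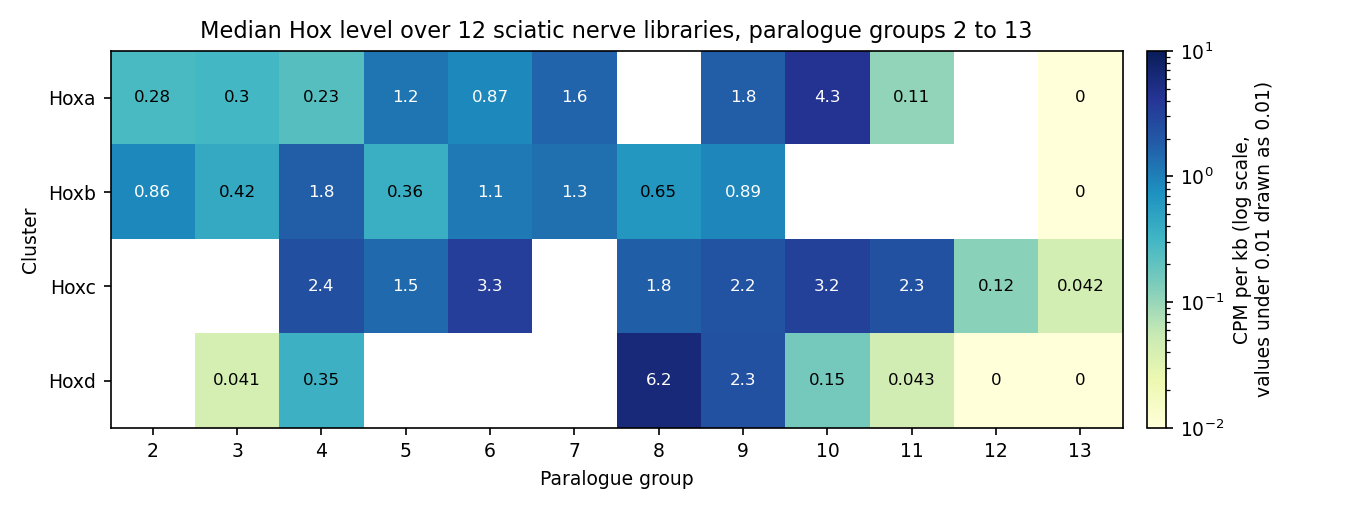
Median level of the Hox genes of paralogue groups 2 to 13 over the 12 libraries in CPM per kb of exon (colour, log scale), by cluster (rows) and paralogue group (columns). Empty cells are genes that mice lack. The darkest cells are Hoxd8 at 6.20 and Hoxa10 at 4.28, and groups 12 and 13 are near 0 in every cluster. Hoxc is filled from group 4 to group 11, apart from the empty cell between Hoxc6 and Hoxc8.

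Hoxc6, whose group 6 paralogues mark the forelimb and thoracic transition in the embryo, had a median of 3.34 CPM/kb, and Hoxc10, a lumbar and hind limb gene, 3.21. The next medians were 2.39 CPM/kb for Hoxc4, 2.33 for Hoxc11, 2.32 for Hoxd9, 2.23 for Hoxc9, 1.81 for Hoxa9 and 1.81 for Hoxb4. Hoxc8 followed at 1.76 CPM/kb, Hoxa7 at 1.59, Hoxc5 at 1.46, Hoxb7 at 1.30, Hoxa5 at 1.21 and Hoxb6 at 1.12. Just below 1 CPM/kb lay Hoxb9 at 0.891, Hoxa6 at 0.872 and Hoxb2 at 0.864. The ranges of neighbours in the order of 39 overlapped: in 0 of 38 neighbouring pairs did the lowest library of the higher gene exceed the highest library of the lower. Read within each library, Hoxb2 lay above Hoxb8 in 12 of 12, and Hoxc9 lay above Hoxa9, Hoxb8 above Hoxb3 and Hoxd3 above Hoxb13 in 11 of 12. For the other neighbours the gene with the higher median was above in at most 10 of 12.

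**Figure D2:**
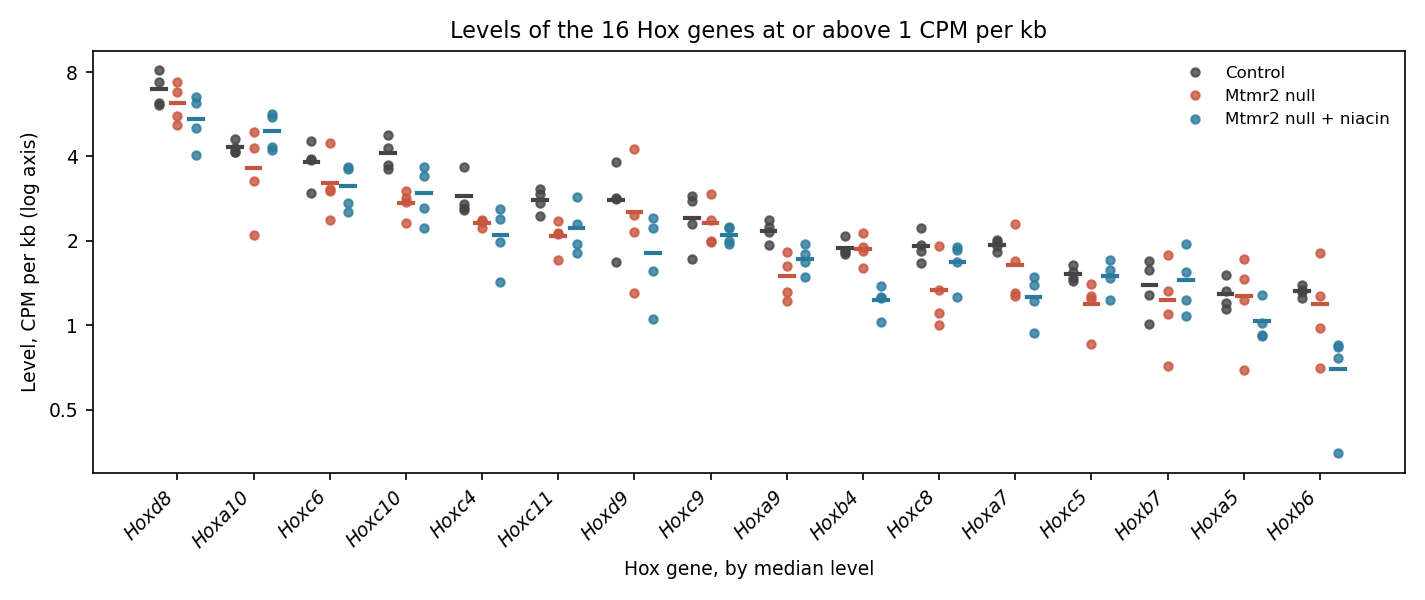
Level per library of the 16 Hox genes with a median of at least 1 CPM per kb, on a log axis, for control (grey), Mtmr2 null (red) and niacin-treated Mtmr2 null (blue). Each point is 1 library and each short line is a group mean over 4. Hoxd8 runs from 4.04 to 8.15 CPM per kb, and the niacin points of Hoxb4 and Hoxb6 lie under every control point.

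By paralogue number, the sciatic nerve used the middle and upper part of the code. Groups 8 to 11 carried 58.8% ± 3.53 (SD, n = 12) of the summed Hox level, groups 4 to 7 carried 35.6% ± 2.46, groups 1 to 3 carried 5.10% ± 1.18, and groups 12 and 13 together 0.490% ± 0.248. Group 8 had the largest median sum, 8.59 CPM/kb, ahead of group 10 at 7.95 and group 9 at 7.003. In group 8 the leading member was Hoxd8, in group 10 Hoxa10 and in group 9 Hoxd9. Group 6 (led by Hoxc6) summed to 5.15 CPM/kb, group 4 (Hoxc4) to 4.77, group 7 (Hoxa7) to 2.93, group 5 (Hoxc5) to 2.91 and group 11 (Hoxc11) to 2.47. Among the anterior groups, which pattern hindbrain and neck, group 2 summed to 1.21 CPM/kb, with Hoxb2 at 0.864. Group 3 summed to 0.809 CPM/kb with Hoxb3 at 0.415. Group 12 summed to 0.126 CPM/kb with Hoxc12 at 0.119, and group 13 to 0.0548 with Hoxc13 at 0.0425.

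Each cluster ended its use at a sharp 5′ step, and the step fell at different numbers. In Hoxa it lay between Hoxa10 and Hoxa11, with medians of 4.28 and 0.106 CPM/kb, a ratio of 40.4, and the lowest Hoxa10 library (2.09) exceeded the highest Hoxa11 library (0.238). Hoxc stopped 1 group later, between Hoxc11 and Hoxc12, at 2.33 and 0.119 CPM/kb (ratio 19.5), with no overlap between libraries. Hoxd stopped earlier, between Hoxd9 and Hoxd10, at 2.32 and 0.153 CPM/kb (ratio 15.1), again without overlap. In Hoxb, which has no members between groups 9 and 13, Hoxb9 was read in every library (0.456 to 1.63 CPM/kb) and Hoxb13 had 0 counts in all 12. A count of 0 allows Hoxb13 up to 0.0960 to 0.147 CPM, depending on the library (3 counts, counting error only).

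The 3′ side was less even. Hoxd rose from Hoxd4 at 0.348 CPM/kb to Hoxd8 at 6.20, a ratio of 17.8 without overlap, there being no Hoxd gene between them. Hoxa rose 5.22-fold between Hoxa4 and Hoxa5, from 0.233 to 1.21 CPM/kb, without overlap. In Hoxb a single gene stood out from both of its neighbours: Hoxb4 exceeded Hoxb3 by 4.35-fold and Hoxb5 by 4.97-fold in medians, with no overlap between libraries. Of 35 steps between adjacent members of a cluster, 11 were free of overlap. About 52.9% of the exon bases of Hoxb3, 52.3% of Hoxd4 and 62.8% of Hoxd3 are shared with other annotated genes, among them antisense genes and, for Hoxd3 and Hoxd4, each other, so their levels are uncertain.

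The clusters differed in how many of their members reached a median of 1 CPM/kb. In Hoxc, 7 of 9 members reached 1 CPM/kb, all from Hoxc4 to Hoxc11. Hoxa had 4 of 11 (Hoxa5, Hoxa7, Hoxa9 and Hoxa10), Hoxb 3 of 10 (Hoxb4, Hoxb6 and Hoxb7) and Hoxd 2 of 9 (Hoxd8 and Hoxd9). The lower bar of the filter on low counts was passed by 8 of 11 Hoxa, 8 of 10 Hoxb, 7 of 9 Hoxc and 3 of 9 Hoxd members. The contrast between Hoxc and Hoxb in these counts therefore depended on the level minimum. Hoxc gave 38.1% ± 3.21 (SD, n = 12) of the summed Hox level, Hoxa 24.5% ± 2.64, Hoxd 20.8% ± 3.57 and Hoxb 16.6% ± 2.69. Without correction for length, Hoxa gave 29.8% and Hoxc 34.1%.

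Genes outside the filter were at the edge of detection. Besides Hoxb13, the terminal genes Hoxd12 and Hoxd13 had 2 counts each over the 12 libraries together and Hoxa13 had 7. Hoxd10, Hoxc12, Hoxa11, Hoxb1, Hoxd1, Hoxd11, Hoxc13 and Hoxd3 had medians from 0.0411 CPM/kb (Hoxd3) to 0.153 (Hoxd10).

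Genes that act with Hox proteins were measured from a separate list. All 9 Pbx, Meis and Pknox genes, whose proteins bind DNA together with Hox proteins, passed the filter, led per length by Pbx2 at 9.64 CPM/kb. Of the limb identity genes, the hind limb factor Pitx1 had a median of 0.853 CPM/kb, the hind limb factor Tbx4 0.158 and the forelimb factor Tbx5 0.193. The homeobox genes Evx1 and Evx2, which flank Hoxa and Hoxd, and the caudal type genes Cdx1, Cdx2 and Cdx4 all failed the filter, and Evx1 had 0 counts in all 12 libraries. Of 9 noncoding genes of the clusters, 5 passed it. Hotair, transcribed inside Hoxc, had a median of 0.617 CPM/kb, and Hottip, at the 5′ end of Hoxa, had 0 counts. All 17 Polycomb and trithorax genes passed, led by Bmi1 at 14.2 CPM/kb.

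Between Mtmr2 null and control nerves, none of the 26 tested Hox genes was called at an adjusted p under 0.05 (edgeR's quasi-likelihood F test, adjusted by the Benjamini-Hochberg method over all genes tested), where 0.267% of all 17257 genes were. The estimates leaned downwards: 22 of 26 had a lower mean in Mtmr2 null (46% of all genes), with a median log2 fold change of -0.20 against 0.03 over all genes. At an unadjusted p under 0.05, 4 Hox genes were lower (15.4%, against 7.9% of all genes) and 0 higher. They were Hoxa9, Hoxc8, Hoxc10 and Hoxc11, all of groups 8 to 11. DESeq2 over all 12 libraries called Hoxa9 alone (3.38% of all genes were called by it), and limma-voom called 0 Hox genes (0.626% of all genes).

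Hoxa9, a regulator of trunk patterning and of blood progenitors, had 2.16, 2.37, 2.24 and 1.93 CPM/kb in control, 1.63, 1.22, 1.83 and 1.31 in Mtmr2 null and 1.68, 1.48, 1.95 and 1.80 after niacin. Every Mtmr2 null library lay under every control library. Mtmr2 null differed from control by -0.54 on the log2 scale (SE 0.16), with an adjusted p of 0.124 (edgeR). Without the library labelled Mtmr2 null replicate 4503 it was -0.65, with an adjusted p of 0.102.

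Hoxc10 had 4.28, 3.72, 4.79 and 3.61 CPM/kb in control, 3.01, 2.74, 2.31 and 2.84 in Mtmr2 null and 2.61, 3.40, 3.66 and 2.22 after niacin. Control and Mtmr2 null did not overlap, and niacin-treated libraries reached into the control range. The log2 fold change of Mtmr2 null against control was -0.59 (SE 0.18, adjusted p 0.145, edgeR), and -0.52 without replicate 4503.

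Hoxc8, a thoracic and brachial gene, had 1.67, 1.94, 1.84 and 2.22 CPM/kb in control, 1.34, 1.91, 1.01 and 1.10 in Mtmr2 null and 1.26, 1.68, 1.90 and 1.86 after niacin. Mtmr2 null replicate 4502 lay among the controls. The estimate was -0.52 on the log2 scale (SE 0.22, adjusted p 0.243, edgeR), and -0.40 without replicate 4503, the lowest library. Hoxc11 went from 2.45 to 3.06 CPM/kb in control to 1.71 to 2.36 in Mtmr2 null without overlap (log2 fold change -0.43, SE 0.18, adjusted p 0.248, edgeR). Without 4503, again the lowest, it was -0.35.

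Counting groups that did not overlap, 5 Hox genes were lower in Mtmr2 null (Hoxa9, Hoxc4, Hoxc5, Hoxc10 and Hoxc11; 19.2%, against 5.48% of all genes) and 1 was higher (Hoxd4; 3.85% of all genes). For each the exact permutation p was 0.0286, the smallest that 4 against 4 libraries can give. This p follows from the lack of overlap by which the genes were picked, and adds no support of its own. Without replicate 4503, Hoxa7 and Hoxb9 joined those lower, making 7 (26.9%, against 7.54% of all genes), and Hoxd4 remained higher (5.52% of all genes). Hoxd4 had 0.283 to 0.347 CPM/kb in control and 0.349 to 0.510 in Mtmr2 null, a difference of 0.31 on the log2 scale (SE 0.36, adjusted p 0.69, edgeR), and of 0.17 without replicate 4503, its highest library. By cluster, 7 of 7 tested Hoxc members had a lower mean in Mtmr2 null, 7 of 8 Hoxa, 6 of 8 Hoxb and 2 of 3 Hoxd. Summed over the cluster, Hoxc lay between 18.4 and 21.1 CPM/kb in control and between 12.9 and 17.0 in Mtmr2 null (from 15.3 without 4503), without overlap. By number, all 10 tested members of groups 8 to 11 and 12 of 16 of groups 2 to 7 had a lower mean. These counts include Hoxc9 and Hoxa5, which were no longer lower without replicate 4503 (log2 fold changes of 0.0018 and 0.0019). Hoxa4 had the largest estimate, -1.06 with an SE of 0.66 (adjusted p 0.426, edgeR), from 0.250 to 0.360 CPM/kb in control and 0.393, 0.0561, 0.0602 and 0 in Mtmr2 null. Without Mtmr2 null replicate 4501 it was -2.69 and passed the threshold (adjusted p 0.0435, edgeR; 2.6% of all genes were then called).

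**Figure D3:**
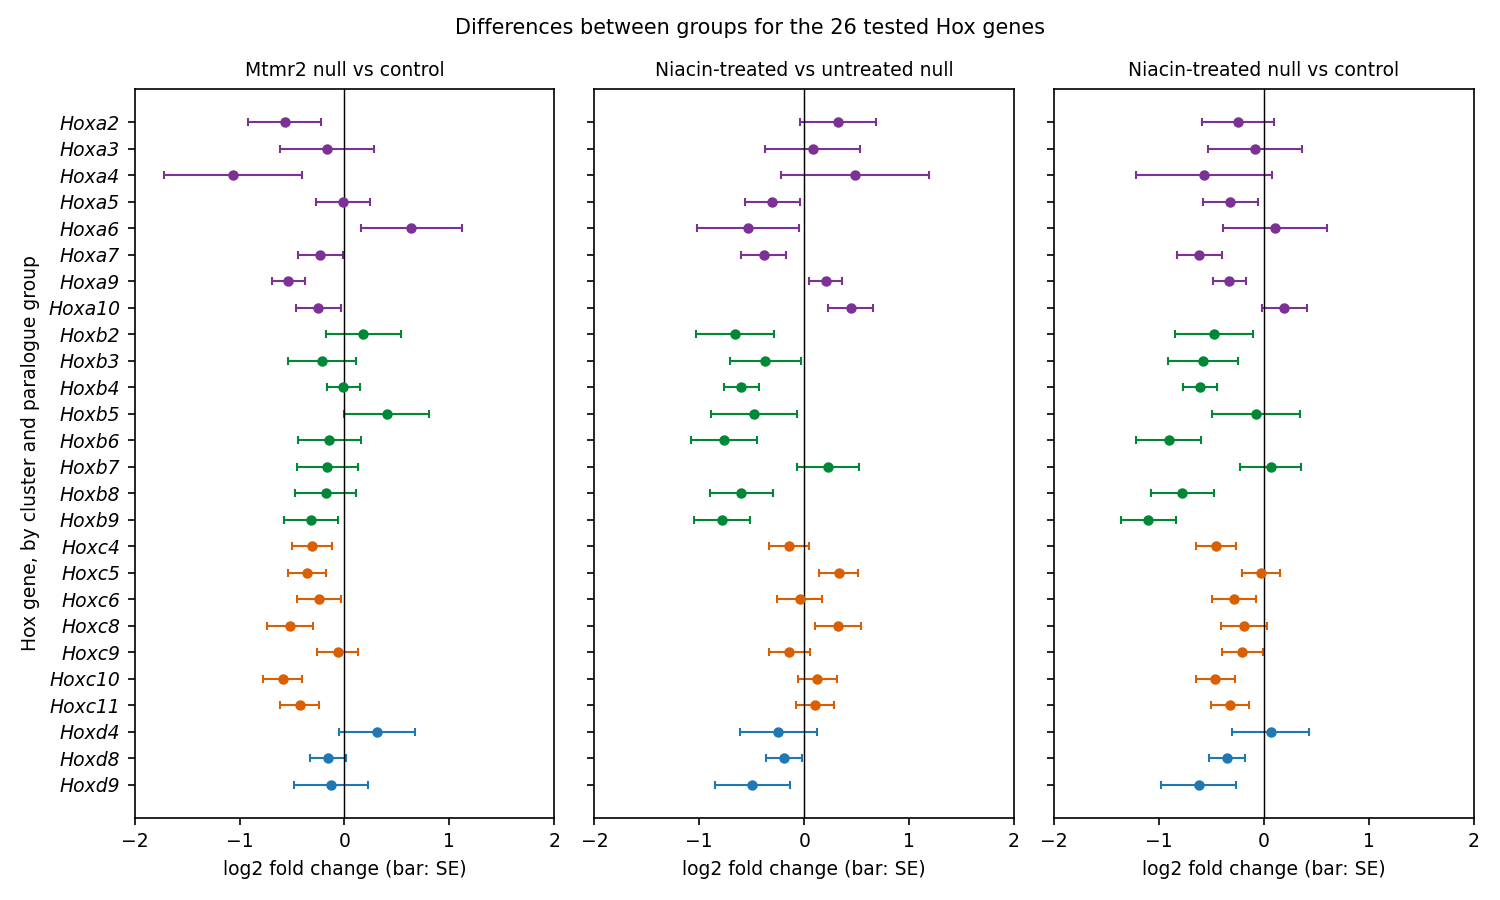
Log2 fold change of each of the 26 tested Hox genes in the 3 comparisons (points) with its standard error (bars), coloured by cluster. No gene passed an adjusted p under 0.05 in any panel, points of Hoxc lie left of 0 in both panels against control, and 7 of 8 Hoxb points lie left of 0 in both niacin panels. Each pair of panels shares the libraries of 1 group.

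Markers of other cells moved between the same groups. In Mtmr2 null, 5 of 5 endothelial markers had a lower mean (summed level 382 to 413 CPM in control, 194 to 409 in Mtmr2 null), as had 5 of 5 adipocyte markers (707 to 992 against 187 to 936 CPM). Of fibroblast markers, 3 of 5 had a lower mean, with sums of 10935 to 16694 CPM against 7775 to 11671 CPM. Of vascular smooth muscle markers, 4 of 5 had a lower mean (median log2 fold change -0.77), with overlapping sums of 609 to 1269 CPM in control and 509 to 1499 CPM in Mtmr2 null. Myelinating Schwann cell markers went the other way: 3 of 4 had a higher mean, and their sums, 49692 to 61717 CPM in control and 66429 to 70037 CPM in Mtmr2 null, did not overlap. None of these 4 was called by edgeR, and neither were the endothelial, fibroblast and vascular smooth muscle markers. Of the adipocyte markers, 2 of 5 were called lower (0.267% of all genes were called). The part of these cells in the Hox values was not tested. In a whole nerve, fewer cells of a kind and less RNA per cell cannot be told apart.

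Between niacin-treated and untreated Mtmr2 null nerves, again none of the 26 Hox genes was called by edgeR, where 1.43% of all genes were. A lower mean after niacin was found for 16 of 26 (54.1% of all genes), with a median log2 fold change of -0.17 against -0.04 over all genes. At an unadjusted p under 0.05, 3 Hox genes were lower (11.5%, against 12.1% of all genes) and 0 higher. Hox genes thus passed this threshold no more often than genes at large. The 3 were Hoxb4, Hoxb6 and Hoxb9, all in Hoxb. DESeq2 over all 12 libraries called Hoxb4 alone (6.01% of all genes were called), as did voom (11.6%). Without Mtmr2 null replicate 4502 edgeR called Hoxb4, Hoxb6 and Hoxb9, while it called 23.6% of all genes.

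Hoxb4, which acts in the hindbrain and neck and in blood stem cells, had 1.84, 1.82, 1.80 and 2.07 CPM/kb in control, 2.13, 1.60, 1.90 and 1.84 in untreated and 1.03, 1.38, 1.26 and 1.25 in niacin-treated Mtmr2 null nerves. Control and untreated Mtmr2 null overlapped, and all 4 niacin-treated libraries lay under all others. Against untreated Mtmr2 null the log2 fold change was -0.60 (SE 0.16), with an adjusted p of 0.0812 (edgeR), and in the 2 groups it corresponds to 4.79 ± 0.554 and 3.16 ± 0.378 CPM (SD, n = 4). Without both libraries high in muscle markers it was -0.72 (adjusted p 0.301, edgeR), and without 4503 it was -0.59.

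Hoxb9, the most 5′ Hoxb gene to pass the filter, had 1.14, 1.34, 1.63 and 1.01 CPM/kb in control, 0.960, 0.765, 1.53 and 0.821 in untreated and 0.456, 0.690, 0.567 and 0.665 in niacin-treated nerves. Treated and untreated groups did not overlap, and the highest untreated value came from replicate 4503. The log2 fold change was -0.78 (SE 0.27, adjusted p 0.133, edgeR), and -0.51 without that library (adjusted p 0.379).

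Hoxb6, a thoracic gene, had 1.31, 1.39, 1.26 and 1.34 CPM/kb in control, 1.81, 0.706, 1.27 and 0.979 in untreated and 0.349, 0.838, 0.767 and 0.850 in niacin-treated nerves. Untreated replicate 4502 lay among the treated libraries. The log2 fold change against untreated Mtmr2 null was -0.77 (SE 0.31, adjusted p 0.195, edgeR), with a range of -0.96 to -0.49 when 1 library was left out. The lower end came without untreated replicate 4502 (adjusted p 0.0297) and the upper end without untreated replicate 4501 (adjusted p 0.421), the highest untreated library.

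**Figure D4:**
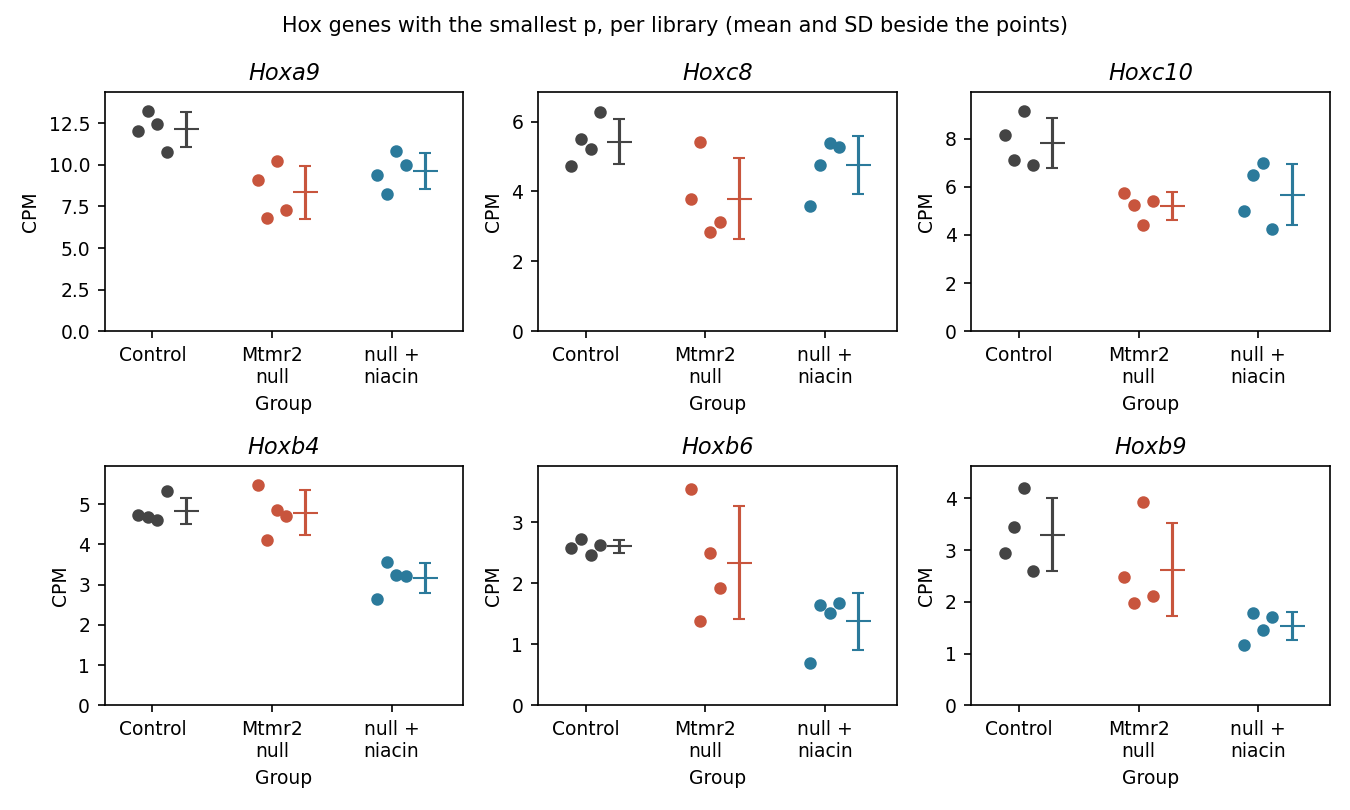
CPM per library of Hoxa9, Hoxc8, Hoxc10, Hoxb4, Hoxb6 and Hoxb9, the 3 genes with the smallest p for Mtmr2 null against control (top) and for niacin-treated against untreated Mtmr2 null (bottom). Points are libraries, with the mean and SD of 4 beside them. Control and Mtmr2 null do not overlap for Hoxa9 and Hoxc10, and all 4 niacin points lie below every other point for Hoxb4 and Hoxb9.

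Of Hox genes whose treated and untreated groups did not overlap, Hoxb4 and Hoxb9 were lower (7.69%, against 3.38% of all genes) and 0 were higher (3.6% of all genes). Within Hoxb, 7 of 8 tested members had a lower mean after niacin, with a median log2 fold change of -0.60, the exception being Hoxb7 (0.23, SE 0.29). Hoxa had 3 of 8 lower, Hoxc 3 of 7 and Hoxd 3 of 3, with medians of 0.14 for Hoxa and 0.10 for Hoxc. Without replicate 4503, Hoxb3 went from -0.37 to -0.00096, Hoxb8 from -0.60 to -0.48 and Hoxb9 from -0.78 to -0.51. Hoxb4 was at -0.59, and Hoxb2 went further down, from -0.66 to -0.73. Beside these values, skeletal muscle markers had a higher mean after niacin in 5 of 5, with sums of 47.0 to 2395 CPM against 8.26 to 38.9 CPM. Adipocyte markers (516 to 931 against 187 to 936 CPM) and macrophage markers (401 to 613 against 296 to 612 CPM) were also higher in mean in 5 of 5 each. Myelinating Schwann cell markers had a lower mean in 4 of 4 (49030 to 73338 against 66429 to 70037 CPM). By edgeR, 3 of 5 skeletal muscle and 1 of 5 adipocyte markers were called higher (1.43% of all genes were called). No macrophage or myelinating Schwann cell marker was called. What part these cells have in the Hoxb values was not tested. Hoxa10 had the largest upward estimate of the genes at or above 1 CPM/kb, 0.44 (SE 0.21, adjusted p 0.266, edgeR). Without replicate 4503, the lowest Hoxa10 library, Hoxa10 was at 0.25, below Hoxb7 at 0.46 and Hoxa9 at 0.32. Niacin replicate 4505 was the lowest of the 12 libraries for 13 of the 26 tested Hox genes. Without it the median over the tested Hox genes (29 in that fit) was 0.00, where it was -0.17 over the 26.

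Summed Hoxb ran from 6.37 to 9.74 CPM/kb in untreated Mtmr2 null nerves (to 9.21 without 4503). In niacin-treated nerves it ran from 3.69 to 6.88, which overlaps the untreated range, and in control from 7.83 to 9.14. The control and the niacin-treated sums did not overlap. Summed Hoxa, at 8.81 to 12.5 CPM/kb after niacin, overlapped the other groups, and so did summed Hoxd at 6.21 to 9.17. All 39 Hox genes together summed to 50.3 ± 2.99 CPM/kb in control, 43.2 ± 3.52 in Mtmr2 null and 40.4 ± 4.89 after niacin (SD, n = 4), the lowest library being niacin 4505 at 33.9.

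**Figure D5:**
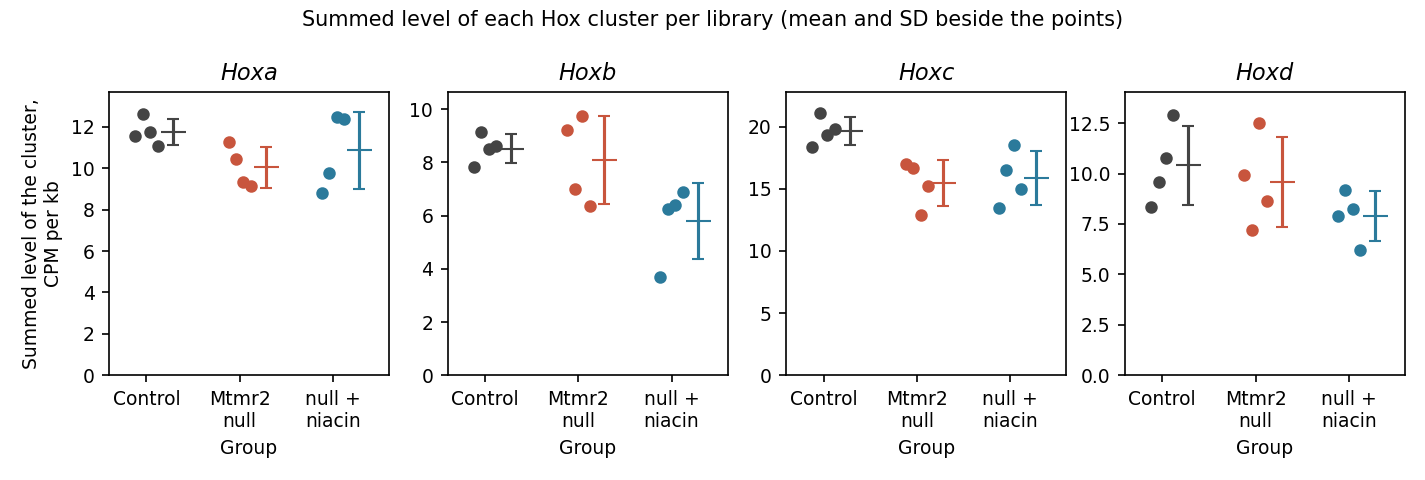
Summed level of each cluster per library in CPM per kb, with the mean and SD of 4 libraries beside the points. Hoxc of Mtmr2 null lies under all control points (12.9 to 17.0 against 18.4 to 21.1), and Hoxb after niacin lies under all control points (3.69 to 6.88 against 7.83 to 9.14).

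Between niacin-treated Mtmr2 null and control nerves, none of the 26 Hox genes and 0% of all genes were called by edgeR over the 12 libraries, while 24.7% of all genes had an unadjusted p under 0.05. Lower means were found for 22 of 26 Hox genes (48.5% of all genes), with a median log2 fold change of -0.33 against 0.02 over all genes. Hoxb9 differed by -1.10 on the log2 scale (SE 0.26, adjusted p 0.0833, edgeR), Hoxb4 by -0.61 (SE 0.16, adjusted p 0.0915) and Hoxb6 by -0.91 (SE 0.31, adjusted p 0.127). An unadjusted p under 0.05 was also reached by Hoxa7, Hoxb8, Hoxc4 and Hoxc10, so that 7 were lower at this threshold (26.9%, against 14.6% of all genes). Groups did not overlap for Hoxa7, Hoxb4, Hoxb6, Hoxb8 and Hoxb9 (19.2%, against 16.6% of all genes), all lower after niacin.

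Hoxa7, a thoracic gene, had 1.83, 1.91, 2.02 and 1.98 CPM/kb in control, 1.69, 1.28, 2.30 and 1.30 in Mtmr2 null and 0.936, 1.49, 1.40 and 1.22 after niacin. The niacin-treated and control libraries stood apart, with the Mtmr2 null libraries spread across both (log2 fold change of niacin against control -0.62, SE 0.21, adjusted p 0.129, edgeR).

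How many Hox genes were called in this comparison depended on the fit. Over only these 2 groups, edgeR called Hoxa7, Hoxb4, Hoxb6 and Hoxb9, 4 of 25 tested (16%), while it called 33.9% of all genes, and DESeq2 called 7 of 26 (26.9%), while it called 34.5%. DESeq2 over all 12 libraries called Hoxb4, Hoxb6 and Hoxb9 (8.28% of all genes), and voom called 8 (30.8%, against 42.4%). Over 12 libraries without a filter except 1 count in total, edgeR called Hoxb9 (0.918% of all genes). Without Mtmr2 null replicate 4502 it called Hoxa7, Hoxb4, Hoxb6 and Hoxb9 (21.6% of all genes), and without 4503 Hoxb9 (1.74%). Without both libraries high in skeletal muscle markers edgeR called 0, and the median over the tested Hox genes went from -0.33 to -0.55, Hoxb8 from -0.78 to -1.20 and Hoxc10 from -0.46 to -0.79. The 3 comparisons share libraries in pairs, so their values are side by side and not independent of each other. Endothelial markers had a lower mean in 4 of 5, with sums of 214 to 313 CPM after niacin against 382 to 413 CPM in control. Skeletal muscle markers had a higher mean in 5 of 5. Macrophage markers had a higher mean in 5 of 5, at 401 to 613 CPM against 330 to 386 CPM without overlap. Lower means were found for 5 of 5 markers of non-myelinating Schwann cells (121 to 216 against 185 to 232 CPM) and 4 of 5 of vascular smooth muscle (582 to 1054 against 609 to 1269 CPM). Whether these cells have a part in the Hox values was not tested.

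None of the 9 cofactor genes was called by edgeR over the 12 libraries in any comparison, and their summed CPM ran from 155 to 168 in control, 154 to 166 in Mtmr2 null and 137 to 148 after niacin. For niacin against control, DESeq2 over all 12 libraries called 1 of them (Pbx2), while it called 8.28% of all genes, and voom called 4, against 42.4%. By edgeR over the 12 libraries, the 3 limb identity genes and the 5 tested noncoding genes of the clusters were also not called in any comparison. Pitx1 had 2.98, 3.23, 4.06 and 3.55 CPM in control, 2.16, 2.37, 1.31 and 1.39 in Mtmr2 null and 1.86, 1.91, 2.05 and 3.08 after niacin. Control and Mtmr2 null did not overlap (log2 fold change -0.93, SE 0.25, adjusted p 0.105, edgeR), and the estimate was -0.80 without replicate 4503 (adjusted p 0.152). DESeq2 called it lower, over all 12 libraries (adjusted p 0.0144) and over only these 2 groups (adjusted p 0.0238; 2.56% of all genes were called). For niacin against control, Pitx1 differed by -0.63 (adjusted p 0.16, edgeR over 12 libraries), and was called by voom (adjusted p 0.00445) and, over only the 2 groups, by DESeq2 (adjusted p 0.0169) and edgeR (adjusted p 0.0414).

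Of the 17 Polycomb and trithorax genes, 1 was called by edgeR over the 12 libraries, between niacin-treated and untreated Mtmr2 null nerves, where 1.43% of all genes were. In that comparison DESeq2 over all 12 libraries called 2 (6.01% of all genes) and voom 5 (11.6%). Cbx2, a chromodomain subunit of the Polycomb complex that binds methylated histone H3, had 19.8, 24.7, 19.4 and 16.5 CPM in control, 35.8, 18.9, 50.3 and 24.0 in Mtmr2 null and 10.9, 15.5, 10.3 and 9.63 after niacin. It fell after niacin against untreated Mtmr2 null, by 1.48 on the log2 scale (SE 0.27, adjusted p 0.0401, edgeR), and the highest untreated value came from the library labelled Mtmr2 null replicate 4503. The call was lost in 10 of the 12 fits that left out 1 library and kept without Mtmr2 null replicate 4502 or 4504, with differences of -1.68 to -1.18 (adjusted p 0.00365 to 0.153, edgeR), the smallest without 4503. Without both libraries high in muscle markers it was -1.67 (adjusted p 0.276, edgeR). Over all 12 libraries, DESeq2 (adjusted p 5.99e-05) and voom (adjusted p 0.00751) also called Cbx2. So did edgeR with Xist as a covariate (adjusted p 0.0492), with the other filters and with the other scaling. Over only the 2 groups DESeq2 called it (adjusted p 0.00106) and edgeR did not (adjusted p 0.174). In that comparison 14 of the 17 had a lower mean (54.1% of all genes), with a median log2 fold change of -0.37 against -0.04 over all genes. For niacin against control, Cbx2 differed by -0.80 without overlap (SE 0.27, adjusted p 0.122, edgeR over 12 libraries). DESeq2 over all 12 libraries (adjusted p 0.049) and voom (adjusted p 0.00158) called it, with 8.28% and 42.4% of all genes. Over only these 2 groups DESeq2 (adjusted p 9.15e-05) and edgeR (adjusted p 0.00503) called it, with 34.5% and 33.9%.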

How the data were processed

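Total RNA of 1 sciatic nerve per mouse was selected for polyA, sequenced on an Illumina HiSeq and mapped by the authors to GRCm38/mm10 with STAR; per the labels, CASAVA 1.9 and DESeq2 were also used. The authors deposited whole-number read counts per Ensembl gene without normalization, for 12 libraries (20763951 to 33191106 counts). Not given in the sources used here were the counting program, annotation release and strand setting. Tables that the authors made of their own comparisons (log2 fold changes and p-values) were used only to match gene symbols, for 42615 genes. Groups were taken from the sample labels. With 4 mice per group, p-values set a difference against the spread between mice. The main fit estimated that spread over all 12 libraries together.

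The analysis used edgeR 4.0.16 in R 4.3.3, with filterByExpr, TMM scaling, and 1 quasi-likelihood fit over all 12 libraries (17257 genes), without covariates, two-sided, with Benjamini-Hochberg adjustment over all genes tested and a threshold of 0.05. The standard error is the log2 fold change divided by the square root of F. Levels are CPM per kilobase of merged exons of GENCODE M21 (GRCm38). Exact permutation tests used all 70 divisions of 4 and 4 libraries. The fit was also run on simulated counts with the same dispersion for all genes and groups. This setting lacks the unequal spread of the real groups, so it cannot show how the fit behaves under that spread. Alternatives were DESeq2 1.42.0, limma 3.58.1 voom with sample quality weights, other filters, scalings, lengths and level minimums, Xist as a covariate and each library left out. Leaving out both libraries high in skeletal muscle markers was added after seeing the data. Replicates of a group differed by more than sampling noise (chi-square per gene of at least 11.6). Pairs of libraries gave 11.6 to 33.3 in control, 37.9 to 312 in Mtmr2 null and 25.0 to 66.3 after niacin. The largest value was between Mtmr2 null replicates 4502 and 4503. Promoter sequences are RefSeq's.

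The Hox genes and the gene lists were chosen with earlier results of these data known. Named with values were Hox genes with a median of at least 1 CPM/kb, any called gene, the 3 tested Hox genes with the smallest p in each comparison, the highest member of each paralogue group, and called or leading members of the other lists; others are named to account for the rest. A few genes that this rule or the marker lists include are not reported here. Hoxd4, Hoxc11, Hoxb5 and Hoxb8 were singled out after their values were seen.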

Additional observations from a re-analysis of the deposited data

Results flagged for a closer look

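A library far from the other 3 of its group was found in 6 of the 78 sets of 4 values (26 tested Hox genes in 3 groups), by the gap to the nearest library divided by the range of the group, against Dixon's critical value for 4 samples. Chance gives about 1 in 20 such sets. Control replicate 4498 stood out for Hoxa3 (ratio 0.835, at 0.537 CPM/kb against 0.248 to 0.296), for Hoxb2 (0.938, at 1.36 against 0.841 to 0.873) and for Hoxc4 (0.879, at 3.66 against 2.57 to 2.70). Hoxb4 stood out in control replicate 4500 (0.836, at 2.07 CPM/kb against 1.80 to 1.84). Hoxa4 stood out in Mtmr2 null replicate 4501 (0.847, at 0.393 CPM/kb against 0 to 0.0602). Hoxb6 stood out in niacin replicate 4505 (0.833, at 0.349 CPM/kb against 0.767 to 0.850), the library with the lowest summed Hox level.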

How the results depend on the processing

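The medians over the tested Hox genes kept their sign under all alternatives for Mtmr2 null against control (-0.28 to -0.13 with a library left out) and for niacin against control (-0.40 to -0.24). For niacin against untreated Mtmr2 null the median ran from -0.19 to 0.00, the upper end without niacin replicate 4505, and was -0.05 with voom and -0.34 with DESeq2 over all 12 libraries. With Xist as a covariate the 3 medians were -0.21, -0.33 and -0.16 in that order, and 0 Hox genes were called. Counts of Hox genes called depended on the fit. For Mtmr2 null against control, DESeq2 over all 12 libraries called 1, and leaving out a library gave 0 to 1 (Hoxa4 without 4501). For niacin against untreated Mtmr2 null, DESeq2 over all 12 libraries and voom each called 1, and leaving out a library gave 0 to 3 (Hoxb4, Hoxb6 and Hoxb9 without Mtmr2 null replicate 4502, when 23.6% of all genes were called). For niacin against control, DESeq2 over all 12 libraries called 3, voom 8, the fit with no filter except 1 count in total 1 (Hoxb9), DESeq2 over only the 2 groups 7 and edgeR over only the 2 groups 4, and leaving out a library gave 0 to 4 (4 without Mtmr2 null replicate 4502, 1 without 4503). A fit over only the 2 groups leaves out the spread of the Mtmr2 null libraries, and the cause of the other differences was not tested. A level minimum of 0.2 CPM/kb gave 26 genes and one of 5 gave 1, in place of 16. The Hoxa share was 29.8% without length and 28.0% with the longest transcript, and the Hoxc share 34.1% without length. Adjusted p over all alternatives ran from 0.0427 to 0.296 for Hoxa9 (Mtmr2 null against control), from 0.0114 to 0.301 for Hoxb4 (niacin against untreated) and from 0.000117 to 0.235 for Hoxb9 (niacin against control). No paired analysis was possible because the replicate numbers of the labels, 4497 to 4508, are each used once. Low counts limit the least abundant genes: Hoxa4 had at most 18 counts in a library and Hoxd4 at most 47.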
